A study of Mus musculus with 2 samples.

Results

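The Sprr, S100a and Lce genes of the epidermal differentiation cluster were examined in ureters of mouse embryos, with Sprr1a, one of the furthest rises on these arrays, as the point of departure. Every non-control probe whose array gene name begins with Sprr, S100a or Lce and a digit was taken, which gave 53 probes for 45 genes out of 39429 probes for 31693 genes. There were 14 Sprr, 14 S100a and 17 Lce genes. Ureters were dissected at E14.5 from embryos of the NMRI strain. Bmp4cKO embryos had the genotype Tbx18(cre/+);Bmp4(fl/fl), in which cre is expressed from the Tbx18 locus, a gene of the ureteric mesenchyme, and recombines the floxed Bmp4 alleles there. Controls had the genotype Tbx18(+/+);Bmp4(fl/?), so they carried no cre and at least 1 floxed Bmp4 allele. Each of 2 two-colour Agilent arrays compared 1 Bmp4cKO with 1 control RNA, with the dyes exchanged between the arrays. The control RNA was red (AlexaFluor647) on replicate 1, where both RNAs are labelled female, and green (AlexaFluor555) on replicate 2, where both are labelled male. The sources used here do not give whether 1 embryo or several supplied an RNA. The p-values rest only on the spread between these 2 arrays, which may be technical. That spread is moderated by a variance shared over all genes tested, so a gene's p-value does not measure its own spread alone.

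The epidermal differentiation cluster is a dense block of genes for proteins of the cornified envelope, the cross-linked protein shell that replaces the plasma membrane of dying keratinocytes. Small proline-rich (Sprr) proteins are short, repetitive substrates of transglutaminases, and several are also made in internal and in injured epithelia. Late cornified envelope (Lce) proteins are joined to the envelope late and are largely restricted to stratified epithelia. S100a genes encode small EF-hand proteins that bind calcium and then contact other proteins; they flank the Sprr and Lce blocks in the cluster and are expressed in many tissues. The ureter is lined by urothelium, a stratified epithelium that does not cornify.

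Bmp4, the deleted gene, went against its label. Its normalised signal was 75598 in the RNA labelled Bmp4cKO against 9191 in the RNA labelled control on replicate 1, and 61938 against 4719 on replicate 2. That is a mean log2 ratio of 3.38 ± 0.48 (SD, n = 2 arrays; limma adjusted p = 0.0163) for a probe at chr14:47003391-47003450 (mm9). The sources used here do not say whether this stretch is deleted in the mutant, and a probe outside the deletion would check nothing. A second Bmp4 probe was in no channel well above background. The ratios are log2 of labelled Bmp4cKO over labelled control, as the dye labels give them, so "higher" means in the direction of Bmp4, and an exchange of the dye labels would turn each direction. The authors' value table has the opposite sign on both arrays. On replicate 2, labelled male, Xist had a signal of 3757 in the Bmp4cKO channel and 231.6 in the control channel, whereas Ddx3y had 65.7 and 5638, so 1 of its 2 RNAs did not match the sex label and the 2 RNAs also differed in sex-linked signals. The members' values are therefore given for each array on its own. Between 69.3% and 74.6% of the spots in a channel were well above background, and the number of arrays limits the precision.

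Of the 45 genes, 25 passed the filter on dim probes and were tested, namely 4 Sprr, 13 S100a and 8 Lce genes. A gene passed where its probe was well above background in both RNAs labelled Bmp4cKO or in both labelled control. The other 20 had no probe that passed, and most of them, 10 Sprr and 9 Lce genes, belonged to the cornified envelope families. Sprr1a, S100a5, S100a4 and S100a6 passed the test (limma adjusted p under 0.05) and were higher in the RNA labelled Bmp4cKO, and no member was lower. Sprr1a was the point of departure for its rise on these arrays, so its call does not bear on whether the rise is shared. The other called members were all S100a genes, 3 of 13 tested. Over all 21977 genes tested, 0.887% were called higher and 1.02% lower. The median mean log2 ratio of the 25 genes was 0.07, against -0.01 over all genes tested. Of the 25 genes, 12 lay above 0 on both arrays, 5 below 0 on both and 8 on opposite sides, while 28.2% of all genes lay above 0 on both arrays and 30.6% below. The families differed in this, with 9 of 13 S100a genes, 2 of 4 Sprr genes and 1 of 8 Lce genes above 0 on both arrays. Sprr1a is among the genes counted here and in the median, and apart from it Sprr2g was the only such Sprr gene. Sprr2a2 was counted by its brightest probe, which turned between arrays, whereas a dimmer probe of it had log2 ratios of 1.63 and 2.18. The difference between families was not tested.

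**Figure D1:**
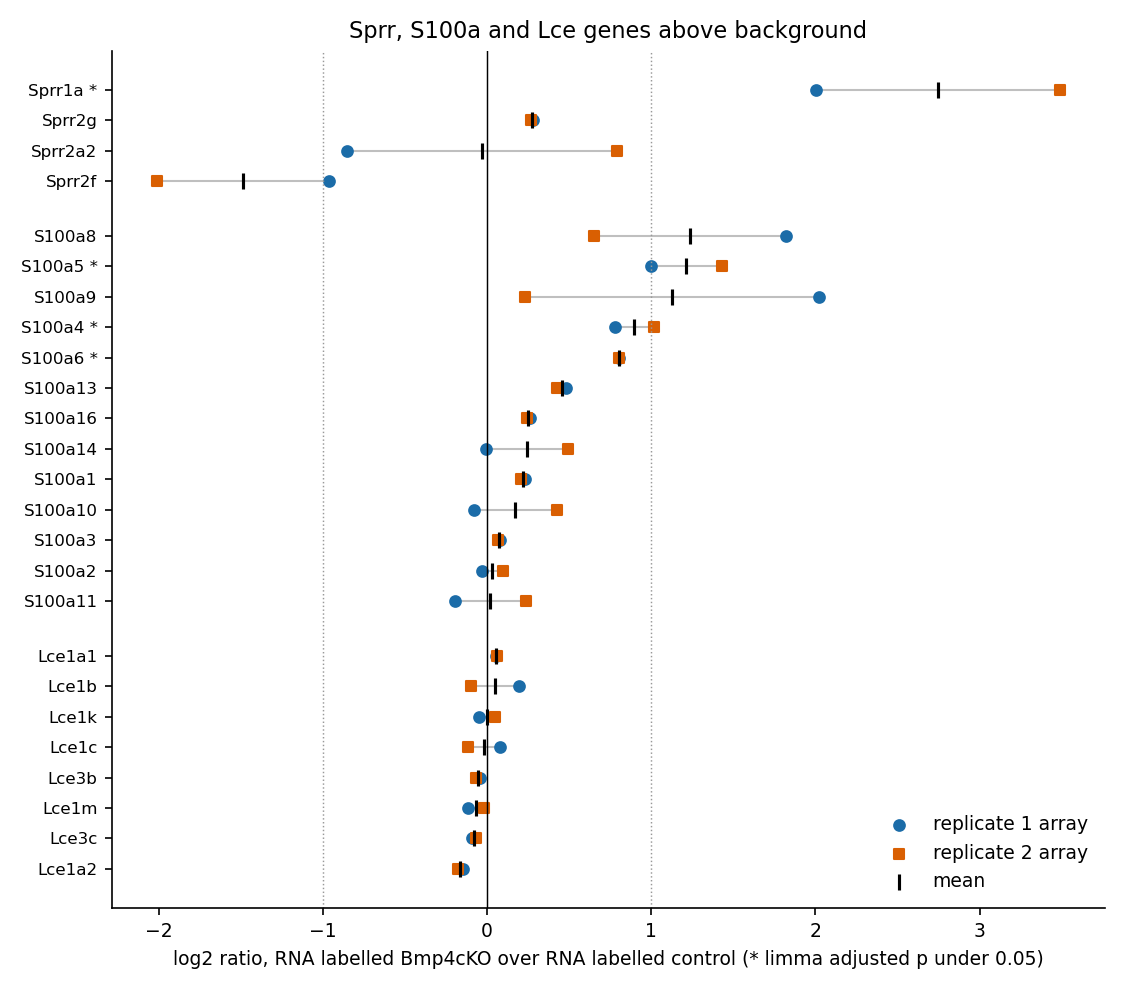
Log2 ratios, labelled Bmp4cKO over labelled control, for the 25 tested genes, by family, with circles for the replicate 1 array, squares for replicate 2, a bar for the mean of the 2 arrays, dotted lines at a 2-fold difference and asterisks for a limma adjusted p under 0.05. Sprr1a stands apart at 2.00 and 3.49, the means of the S100a genes lie above 0, and the means of the 8 Lce genes lie between -0.16 and 0.06.

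Sprr1a, a small proline-rich protein that serves as a cross-bridge of the envelope, rose the furthest of the members. Its signal was 7754 in the RNA labelled Bmp4cKO against 1935 in the control on replicate 1, and 15343 against 1367 on replicate 2. Both RNAs labelled Bmp4cKO lay well above both controls, and the ratio was larger on replicate 2, through a higher Bmp4cKO and a lower control signal. The mean log2 ratio was 2.75 ± 1.05 (SD, n = 2 arrays; 6.71-fold; limma adjusted p = 0.0386), which placed it at rank 5 of 21977 genes from the highest. Its probe lies at chr3:92287955-92288014 (mm9). Sprr1a was the only tested member whose representative probe was at least 2-fold higher on both arrays, and none was at least 2-fold lower on both, against 0.578% and 0.619% of all genes. The call was lost when loess was replaced by median centring (adjusted p = 0.329), without normalization between channels (adjusted p = 1) and with a robust variance prior (adjusted p = 0.211). In whole-ureter RNA, fewer cells of a type and less RNA per cell cannot be told apart.

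Sprr2f, a member of the Sprr2 subfamily whose probe is 118 kb from that of Sprr1a, ran the other way without passing the test. Its signal was 1489 in the RNA labelled Bmp4cKO against 2906 in the control on replicate 1, and 899.1 against 3622 on replicate 2. Both controls were thus above both RNAs labelled Bmp4cKO, with a mean log2 ratio of -1.49 ± 0.74 (SD, n = 2 arrays) and a limma adjusted p of 0.0704. It was called lower with plain background subtraction (adjusted p = 0.0486) and with a variance prior that follows the mean signal (adjusted p = 0.0103). Its mean log2 ratio ranked 21914 of 21977 from the highest. Sprr2g, also of this subfamily, had 7564 against 6225 on replicate 1 and 5447 against 4522 on replicate 2, a log2 ratio of 0.28 and 0.27 (adjusted p = 0.383; 95% interval of the mean -0.02 to 0.57). RefSeq lists Sprr2g as a transcribed pseudogene. Neighbouring Sprr genes thus had mean log2 ratios from -1.49 to 2.75.

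**Figure D2:**
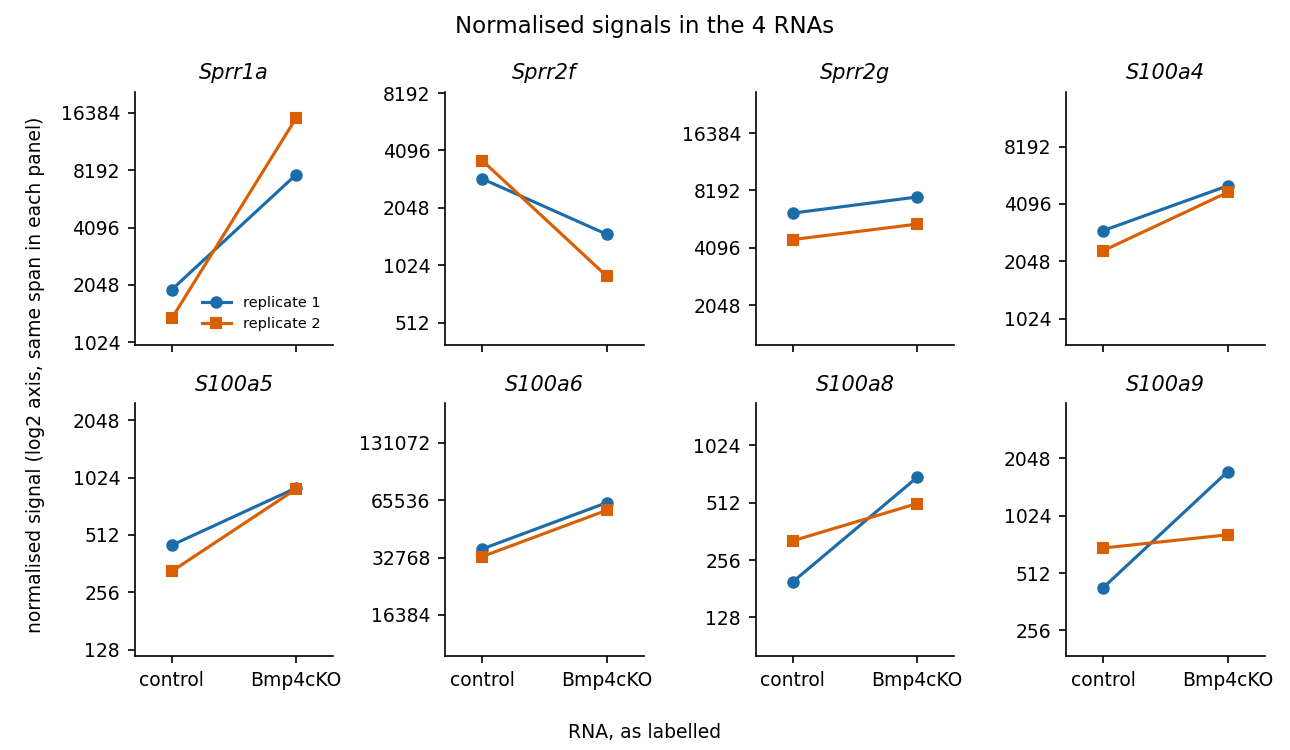
Normalised signals of 8 members in the RNAs labelled control and Bmp4cKO, with circles and squares for the arrays of replicates 1 and 2, a line joining the 2 RNAs of an array, and a log2 axis of equal span in each panel. Sprr1a and S100a4, S100a5 and S100a6 climb on both arrays, Sprr2f descends on both, and S100a8 and S100a9 climb more steeply on replicate 1.

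Sprr2a2 was represented on the array by 3 probes that did not behave alike. The brightest, at chr3:92060587-92060646, had signals of 82204 against 148600 on replicate 1 and 149850 against 86504 on replicate 2, hence log2 ratios of -0.85 and 0.79. The middle probe, at chr3:92058417-92058476, had 652.5 against 211.3 and 839.9 against 184.9, log2 ratios of 1.63 and 2.18. The dimmest, at chr3:92054627-92054686, had 233.1 against 119.8 and 320.5 against 119.4 and was not well above background in either control, which makes Sprr2a2 by this probe at least 2.28-fold higher. The dimmest probe thus passed the filter only through the RNAs in which it is high, so its direction adds no support. The middle probe, well above background in all 4 channels, went with Sprr1a on both arrays, and the brightest turned between arrays.

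The first 30 bases of the 3 Sprr2a2 probes are shown beside bases 21 to 50 of the Gm11849 probe. The brightest Sprr2a2 probe shares a run of bases with probes of other genes. With the Gm11849 probe the run is 31 bases long, of which 30 are shown. Capitals mark the bases in common with the Gm11849 probe, and the letters of the middle and dimmest Sprr2a2 probes are in lower case.
Sprr2a2, brightest probe: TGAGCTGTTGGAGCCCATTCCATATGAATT
Gm11849 probe, chromosome 4: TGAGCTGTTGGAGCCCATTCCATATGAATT
Sprr2a2, middle probe: ctgctgtttcatttcctgaaataaaaaagg
Sprr2a2, dimmest probe: taaaaaagtgtctcagtgcttgactgcagt
Of all 53 member probes, 5 shared a run of at least 20 bases with the probe of another gene name. For 3 of those the other name was also a member of the 3 families by the rule. The Lce3b probe shared a run with the Lce3c probe and with that of Gm9782, which RefSeq names Lce3d. The brightest Sprr2a2 probe shared runs of 20 to 31 bases with 6 probes of other genes, on chromosomes 3, 4, 9, 12, 14 and 19, among them 2 described on the array as similar to ribosomal protein L21. The probe on chromosome 3, of Gm3910, lies at chr3:92277148-92277207 (mm9), between the outermost member probes and thus within the cluster. Those 6 probes had log2 ratios from -0.95 to -0.15 on replicate 1 and from 0.19 to 1.07 on replicate 2, with signals from 76112 to 174830. The Sprr2a2 probe lay within these ranges on both arrays. Without this probe, an alternative chosen after seeing the data, Sprr2a2 was represented by the middle probe and had a mean log2 ratio of 1.91 ± 0.39 (SD, n = 2 arrays; 3.75-fold; limma adjusted p = 0.0229), and 5 members instead of 4 were called higher. RefSeq also lists Sprr2a1 and Sprr2a3, and whether the Sprr2a2 probes detect their RNA was not tested.

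**Figure D3:**
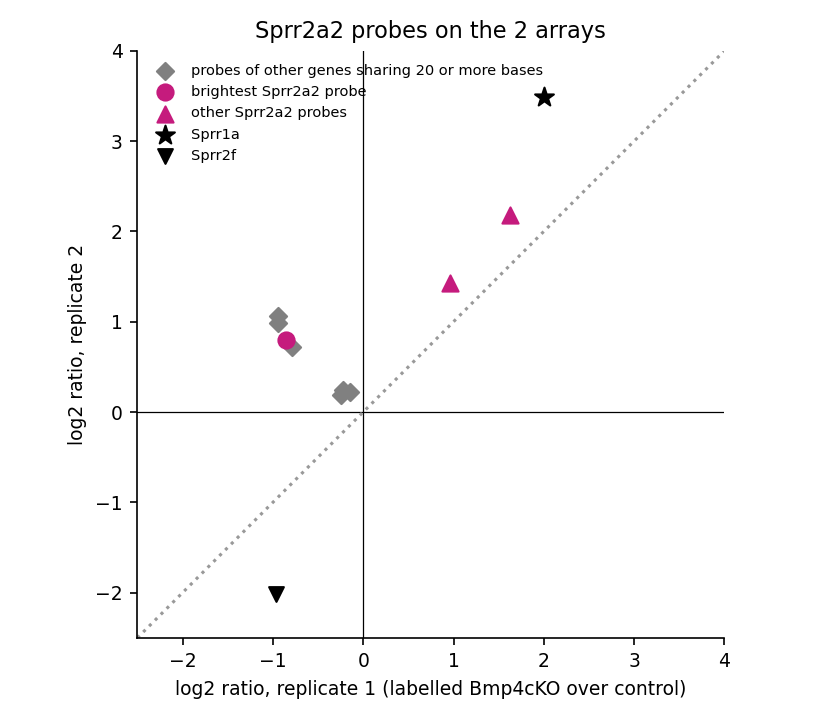
Log2 ratio on replicate 2 against that on replicate 1 for the 3 Sprr2a2 probes, the 6 probes of other genes that share at least 20 bases with the brightest of them, and Sprr1a and Sprr2f, with a dotted line of equal ratios. The brightest Sprr2a2 probe sits among the 6 probes in the upper left, whereas the other 2 Sprr2a2 probes lie in the upper right with Sprr1a.

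The remaining 10 Sprr genes were Sprr1b, Sprr2b, Sprr2d, Sprr2e, Sprr2h, Sprr2i, Sprr2j-ps, Sprr2k, Sprr3 and Sprr4. None was well above background in any of the 4 channels, with signals from 51.4 to 113, whereas the median signal of negative-control spots was 67.6 to 71.3. Their RNA was therefore not measured, and no ratio is given. Sprr1b, the closest relative of Sprr1a, is among them.

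RefSeq promoter sequences (GRCm38.p6) were matched for 39 of the 45 genes by symbol and searched on both strands over the 250 bases before the start. Stretches are shown 5′ to 3′ to set side by side genes that differed in the data. They are those of Sprr1a, which rose, Sprr2f, which was lower on both arrays, Sprr1b, which was not measured, and Ivl, a neighbour described further on. Capitals mark TGANTCA, with N for any base, and TATAAA, the TATA box. TGANTCA is a loose form of the letters bound by AP-1 dimers of Fos and Jun proteins.
Sprr1a, chr3:92485882-92486131, minus strand: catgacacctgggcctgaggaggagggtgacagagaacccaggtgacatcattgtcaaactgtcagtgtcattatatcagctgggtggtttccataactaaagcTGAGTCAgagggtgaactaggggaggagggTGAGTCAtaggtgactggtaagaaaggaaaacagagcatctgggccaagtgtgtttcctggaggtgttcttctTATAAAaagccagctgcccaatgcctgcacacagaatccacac
Sprr1b, chr3:92438780-92439029, minus strand: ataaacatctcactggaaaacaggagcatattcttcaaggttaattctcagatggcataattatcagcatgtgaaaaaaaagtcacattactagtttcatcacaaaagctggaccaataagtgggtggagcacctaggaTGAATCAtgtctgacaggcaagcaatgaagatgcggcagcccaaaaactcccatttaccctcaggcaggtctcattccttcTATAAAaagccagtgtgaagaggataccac
Sprr2f, chr3:92364937-92365186, plus strand: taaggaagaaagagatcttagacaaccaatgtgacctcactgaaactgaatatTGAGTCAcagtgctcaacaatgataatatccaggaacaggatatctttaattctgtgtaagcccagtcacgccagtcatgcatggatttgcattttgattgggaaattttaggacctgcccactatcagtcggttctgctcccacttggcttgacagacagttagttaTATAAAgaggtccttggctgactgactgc
Ivl, chr3:92573736-92573985, minus strand: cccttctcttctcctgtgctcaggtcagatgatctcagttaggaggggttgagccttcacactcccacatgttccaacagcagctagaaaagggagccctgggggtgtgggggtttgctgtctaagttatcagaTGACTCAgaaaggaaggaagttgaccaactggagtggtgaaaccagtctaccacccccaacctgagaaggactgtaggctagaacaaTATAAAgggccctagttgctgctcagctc
TGANTCA was found in 9 of 12 Sprr genes with a promoter in the table, in 2 of 11 S100a genes and in 0 of 16 Lce genes, and in 6.75% of all 32851 promoters. The family counts are of genes with a match in any of their promoters, whereas the percentages are of single promoters. S100a3 and S100a16 have several promoters, so the units differ. Sprr1a held TGANTCA at 2 places, beginning 146 and 116 bases before the start, and 0.338% of all promoters held it at least that often. S100a11, which was not called, and Sprr2k, which was not measured above background, also held it at 2 places. Sprr1b, Sprr2b, Sprr2d, Sprr2e, Sprr2h, Sprr2i and Sprr2k, none of them measured above background, held it too, as did Sprr2f. S100a16, also not called, held it as well. TATAAA was found in 10 of the 12 Sprr, 3 of the 11 S100a and 2 of the 16 Lce genes and in 12.4% of all promoters. AACCNGTT, a grainyhead motif, was found in S100a3 and S100a9 and in 1.79% of all promoters. CCNCNCCC, letters of Klf binding sites, was found in 4 of the 12 Sprr, 5 of the 11 S100a and 0 of the 16 Lce genes and in 45.9% of all promoters. Several Sprr2 promoters are near copies of each other, so their matches are not independent of each other, and a match to letters is not a measured binding site.

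Among the S100a genes, S100a4, S100a5 and S100a6 rose on both arrays, and their probes lie next to each other within 8.49 kb. S100a5, a calcium-binding protein best known from the olfactory system, had 902.2 in the RNA labelled Bmp4cKO against 452.5 on replicate 1 and 890.8 against 330 on replicate 2, a mean log2 ratio of 1.21 ± 0.31 (limma adjusted p = 0.0372). S100a4, which binds non-muscle myosin and is much used as a marker of motile mesenchymal cells, had 5098 against 2971 and 4712 against 2331, a mean of 0.90 ± 0.17 (limma adjusted p = 0.0463). S100a6, or calcyclin, had 63559 against 36390 and 57995 against 33199, a mean of 0.80 with log2 ratios of 0.80 on both arrays (limma adjusted p = 0.0483). For each of these 3 genes both RNAs labelled Bmp4cKO were above both controls. A second S100a4 probe had log2 ratios of 0.87 and 1.02, close to the first. The calls for S100a4 and S100a6 sat near the threshold and were lost with the scanner's processed signals (adjusted p = 0.0505 and 0.0563) and with channels fitted separately (0.0698 and 0.0602), while S100a5 kept its call in both settings. S100a6 was also lost with the variance prior that follows the mean signal (0.0513), and all 3 were lost with median centring or no normalization.

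S100a8 and S100a9, the subunits of calprotectin, which neutrophils store in large amounts and stressed keratinocytes also make, had means near that of S100a5 but ratios that differed between the arrays. S100a8 had 694.7 against 196.9 on replicate 1 and 506.8 against 323.2 on replicate 2, log2 ratios of 1.82 and 0.65 (limma adjusted p = 0.131). S100a9 had 1743 against 430 on replicate 1 and 813.2 against 693.6 on replicate 2, log2 ratios of 2.02 and 0.23 (limma adjusted p = 0.319). Neither passed the test, and for both the RNAs labelled Bmp4cKO lay above both controls. S100a8 was called only with the variance prior that follows the mean signal (adjusted p = 0.0298). Of 9 neutrophil markers, 5 were tested and none was called, with a median log2 ratio of -0.04. Camp, a granule peptide, had log2 ratios of 0.70 and 0.26, and Cd177, a surface protein of neutrophils, -0.39 and -0.72. The summed signals of the 5 markers were 95260 against 78340 on replicate 1 and 56910 against 84670 on replicate 2. Csf3r, the receptor for granulocyte colony-stimulating factor, named after its values were seen, made up most of these sums, with 92116 against 75420 and 54310 against 82093. Mpo, myeloperoxidase, also named afterwards, had log2 ratios of 0.29 and 0.48. Ltf was in no channel well above background, and the part of neutrophils in the S100a8 and S100a9 ratios was not tested.

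The other S100a genes differed less. S100a13, which takes part in the release of signal-less growth factors, had log2 ratios of 0.48 and 0.43 (limma adjusted p = 0.162; 95% interval of the mean 0.16 to 0.75). S100a16 had 0.26 and 0.24, and S100a1, known from heart muscle, 0.23 and 0.20. S100a3, which lies 3.28 kb from S100a4 and is known from the hair cuticle, had 0.08 and 0.07, with a 95% interval of -0.22 to 0.37. The block of rising genes therefore had a neighbour that was not called, although the difference between S100a3 and S100a4 was not tested. S100a10, the partner of annexin A2, had -0.08 and 0.42, S100a14 had -0.01 and 0.49, S100a11, a substrate of the envelope, had -0.20 and 0.24, and S100a2 had -0.03 and 0.10. These 4 genes lay on opposite sides of 0 on the 2 arrays. S100a7a was in no channel well above background.

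No Lce gene was called. All 8 tested genes, Lce1a1, Lce1a2, Lce1b, Lce1c, Lce1k, Lce1m, Lce3b and Lce3c, had log2 ratios between -0.18 and 0.20 on both arrays. Lce1a2 had signals of 5526 in the RNA labelled Bmp4cKO against 6121 on replicate 1 and 4743 against 5364 on replicate 2, a mean log2 ratio of -0.16 with a 95% interval of -0.46 to 0.13. Lce1b had 1418 against 1239 and 1186 against 1271, so its RNAs crossed between the arrays, with a 95% interval of the mean of -0.29 to 0.39. Lce1a1 had log2 ratios of 0.05 and 0.06, Lce1k -0.05 and 0.05, and Lce1c 0.08 and -0.12. Lce3b had -0.04 and -0.07, Lce1m -0.12 and -0.02, and Lce3c -0.09 and -0.07. These 6 genes thus lay close to 0 on each array. They had signals from 147.4 to 332.2, not far above those of the negative controls, so that a small change in them would be compressed by the offset of 50 added in the background correction. Lce1d, Lce1e, Lce1f, Lce1g, Lce1h, Lce1i, Lce1l, Lce3a and Lce3f did not pass the filter. The Lce3b and Lce3c probes share a run of 28 bases, and those of Lce1h and Lce1i a run of 29 bases, so a probe of such a pair could also detect RNA of its partner. Lce3d and Lce3e, which the array carries under other names outside the rule, had means of -0.05 and 0.08.

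All 53 probes lie on chromosome 3 over 3.05 Mb (mm9, chr3:90314959-93368496). The interval also holds probes for 44 genes of other names, of which 22 were tested, 1 was called higher and none lower, with a median log2 ratio of -0.03. The 1 called gene was Ivl, which encodes involucrin, the scaffold protein on which the envelope is built, 87.4 kb from the Sprr1a probe. Its signal was 411.1 in the RNA labelled Bmp4cKO against 145.7 on replicate 1 and 525.6 against 112.2 on replicate 2, so that both RNAs labelled Bmp4cKO were above both controls. The mean log2 ratio was 1.86 ± 0.52 (SD, n = 2 arrays; limma adjusted p = 0.0297). The control was well above background on only 1 array, so Ivl passed the filter through the RNAs in which it is high, and it was not tested where all 4 channels had to be above background. Between Sprr1a and the rising S100a genes lie 1.87 Mb. The Lor probe, for loricrin, the main protein of the mature epidermal envelope, had signals of 1344 against 2235 and 1345 against 1970, a mean log2 ratio of -0.64 ± 0.13 (limma adjusted p = 0.0861).

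**Figure D4:**
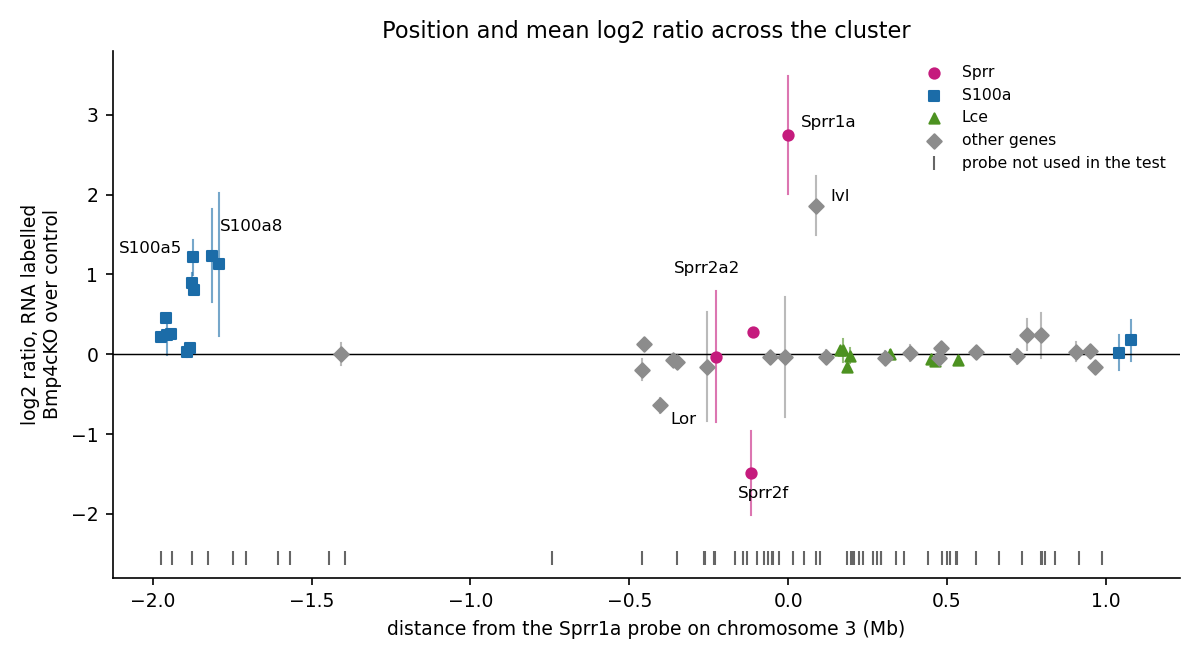
Mean log2 ratio, RNA labelled Bmp4cKO over control, against distance from the Sprr1a probe in Mb for each tested gene of the interval, with a vertical line from the value of one array to that of the other and ticks at the bottom for probes not used in the test. Sprr1a and Ivl stand together, Sprr2f lies below 0 beside them, the Lce genes lie on 0, and the rising S100a genes form a separate group at the far left.

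Genes that act with these families were read from lists. Of 16 cluster genes of other families, 8 were tested, and Ivl, with the limit just given, was the only one called. Of 18 cornified envelope genes outside the cluster, 17 were tested, and 1 was called higher and none lower, with a median log2 ratio of 0.16. It was Dmkn, which encodes the secreted epithelial protein dermokine, with signals of 1360 against 418.2 and 1167 against 358.9 and a log2 ratio of 1.70 on both arrays (limma adjusted p = 0.0188). Transglutaminase 1 (Tgm1), the enzyme that joins Sprr proteins to the envelope, named for that role after its values were seen, had log2 ratios of 0.11 and 0.44 and was not called.

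Of 24 regulators of epithelial differentiation, 23 were tested, and Pparg was the only one called. The median log2 ratio over the list was 0.00 on replicate 1 and 0.62 on replicate 2, and that of the means was 0.46. Pparg, a nuclear receptor needed for urothelial differentiation, had 8970 against 2007 and 8287 against 1590, a mean log2 ratio of 2.27 ± 0.16 (limma adjusted p = 0.0163). Grhl3, a grainyhead factor of barrier epithelia and the urothelium, named here after its values were seen, had log2 ratios of 1.21 and 2.57 and was not called (limma adjusted p = 0.0675). The AP-1 genes on the list, also singled out afterwards, were not called. Fosl1 had -0.01 and 0.21, Jun -0.92 and 0.32, and Junb -0.85 and 1.63. Jun and Junb thus lay on opposite sides of 0 on the 2 arrays.

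Of 11 partners and receptors of S100 proteins, none was called, with a median log2 ratio of 0.17 and 6 genes above 0 on both arrays. Anxa1, annexin A1, which binds S100a11, had log2 ratios of 0.59 and 0.40, and Ager, the receptor for advanced glycation end products, 0.15 and 0.30. Of the S100 genes of other names, which lie on other chromosomes, S100b rose, with 3124 against 1828 and 3300 against 1584, a mean log2 ratio of 0.92 ± 0.20 (limma adjusted p = 0.0487), a call that was lost where all 4 channels had to be above background. S100g was not well above background in either RNA labelled Bmp4cKO and was not called, and S100z was in no channel well above background. S100b is also a Schwann cell gene, and of 6 Schwann cell markers none was called, with a median of 0.06 and summed signals of 9105 against 9206 and 10550 against 9338. Mbp, a myelin gene, had log2 ratios of 0.24 and 0.59, and Foxd3, a neural crest factor, -0.10 and 0.49.

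Of 12 urothelial markers 6 were called higher, as Sprr1a was, and none lower, with a median log2 ratio of 0.76 and summed signals of 258000 against 130700 on replicate 1 and 234500 against 126700 on replicate 2. Upk1b, one of the uroplakins that plate the luminal surface, averaged 3.72 ± 0.82, Upk3a 2.48 ± 0.42, Upk2 2.41 ± 0.76 and Krt19, a keratin of simple epithelia and urothelium, 1.41 ± 0.05. The other 6 were Cdh1, Epcam, Krt5, Krt7, Krt18 and Krt20, and Krt5 lay on opposite sides of 0, at -0.18 and 0.30. Epcam, a general epithelial marker named after its values were seen, had log2 ratios of 0.18 and 0.10 and was not called. Of 8 smooth muscle markers 3 were called higher, with summed signals of 106500 against 75740 and 137100 against 66550 and means of 2.48 for Myh11, 2.31 for Actg2 and 2.14 for Cnn1, genes of the contractile apparatus. Of 5 ureteric mesenchyme markers, Tbx18 was called higher (0.97 ± 0.17) and Aldh1a2, a retinoic acid synthesis gene, lower (-1.83 ± 0.46). Tbx18 is also the locus that carries cre in Bmp4cKO embryos and not in controls, so its genotype differs between the compared RNAs. The part of the cre allele in the Tbx18 ratio was not tested. The summed signals of the 5 markers were 182600 against 192600 and 154800 against 245200. Aldh1a2 made up 26638 against 75533 and 25344 against 112680 of these sums. Tcf21, another marker of this list named after its values were seen, made up 114820 against 79465 and 79140 against 84575. Of 8 epidermal markers 6 were tested and none was called, with a median of 0.08 and summed signals of 9063 against 9442 and 9841 against 9143. Besides Lor, Krtdap, a keratinocyte differentiation gene, had the largest mean of these, 0.38. Flg, filaggrin, and Krt77 were in no channel well above background. Of 8 macrophage and leukocyte markers none was called, with summed signals of 24570 against 22830 and 20120 against 23130. Ptprc, the leukocyte antigen CD45, had log2 ratios of -0.76 and -0.83 (limma adjusted p = 0.0508), and Itgam, an integrin of myeloid cells, -0.12 and -0.28. The part of more or fewer urothelial or muscle cells in the ratios of Sprr1a, Ivl and the S100a genes was not tested.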

How the data were processed

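Ureter RNA was hybridised to 2 two-colour arrays of opposite dye orientation. Per the file headers, the authors quantified spots with Agilent Feature Extraction 10.7.3.1, on probe positions of mm9. The deposited spot and background values used here are linear intensities, the deposited processed signals are dye-normalized intensities, and the deposited log ratio is log10 of red over green. The authors' deposited value table holds a score per probe, a signed fold change within 0.01 (log2) of the scanner's ratio for 99.6% and 99.7% of probes.

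Background was corrected with normexp (offset 50), red over green was normalized by loess with control spots at weight 0 (limma 3.58.1, R 4.3.3), and outlier spots were left out. Printed signals were scaled by Aquantile after loess and contain the offset. The brightest probe that passed the filter stood for its gene. Ratios were turned by the dye labels and fitted with lmFit and eBayes (1 residual and 4.03 prior degrees of freedom), with Benjamini-Hochberg adjustment over all 21977 genes. The fit was tested on simulated data. A constant dye effect cancels in the mean of the 2 orientations. Names came from the array, and for 31001 of 39429 probes from a RefSeq table.

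Every tested member is named with its log2 ratios or its signals on each array. The called genes of each other list, up to 4, or else the 2 with the largest mean ratios, are also named. Members, lists and tests were chosen with earlier results of these data known. Alternatives covered background, normalization, filter, probe choice, variance prior, the value table and each array alone.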

Additional observations from a re-analysis of the deposited data

Results flagged for a closer look

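Of the 25 tested members, 8 had ratios of opposite direction on the 2 arrays, whose difference was not tested. The log2 ratio on replicate 2 minus that on replicate 1 was 1.647 for Sprr2a2 (its brightest probe), 0.503 for S100a10, 0.501 for S100a14, 0.434 for S100a11, 0.129 for S100a2 and 0.094 for Lce1k. It was -0.295 for Lce1b and -0.191 for Lce1c. The 2 arrays also differ in dye orientation and in labelled sex. Across the 21977 tested genes, which are not independent replicates, Pearson's r between the arrays was 0.477 and Spearman's rho 0.311.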

How the results depend on the processing

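Sprr1a stayed between 2.75 and 2.81 under the 13 alternatives that use both arrays and was called in 10 of them. It was not called with median centring (2.77), no normalization (2.75) or a robust variance prior (2.75). Bmp4 was 3.38 with median centring and 3.36 without normalization, and then not called. With median centring, 0 genes were called in either direction, and without normalization 0 were higher and 1 lower, so 0 members and 0 genes of the 5 lists of related genes (cluster, envelope, regulators, S100 partners, other S100 genes) were higher. All genes called higher and lower were 339 and 388 with plain background subtraction and 611 and 671 with a variance trend. They were 298 and 338 with the authors' value table, its sign turned to follow the dye labels. Members called higher were 2 with processed signals and 2 with separate channels and no replicate block (S100a4 and S100a6 lost), in place of the ratio within an array, which pairs the 2 RNAs. Members called lower were 1 (Sprr2f) with plain subtraction and with the trend. Of those 5 lists, 9 genes were higher and 1 (Lor) lower with the trend, and 2 higher where all 4 channels had to be above background, against 4 higher (Ivl, Dmkn, Pparg and S100b) and 0 lower in the report. Members at least 2-fold higher on both arrays were 2 with plain subtraction, processed signals, no normalization, every passing probe, the value table or without the shared Sprr2a2 probe (chosen after seeing the data), and 2-fold lower 1 (Sprr2f) with median centring and no normalization. On 1 array alone they were 3 higher without either replicate, and 0 to 1 lower. Directions turned for Lce1k (0.001, 0.033 and 0.033), S100a2 (-0.019, -0.018 and -0.019), Lce1c (0.141 and 0.141) and Sprr2a2 (0.074, 0.053, 1.02 and 1.91); the cause was not tested, except that the last 2 Sprr2a2 values average or replace its probes.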
